A study of Mus musculus with 4 samples.

Results

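Serotonin-producing enterochromaffin cells were examined among single cells of mouse enteroids, organoids of the intestinal epithelium grown in Matrigel. A cell was taken as a member when it held at least 200 counts of Tph1 and at least 2000 counts of Chgb per 1000000 counts (CPM). Tph1 encodes tryptophan hydroxylase, the first enzyme of serotonin synthesis in the gut, and Chgb encodes chromogranin B, a protein of secretory granules. Of 290 cells, 97 were members (33.4%, exact Clopper-Pearson 95% interval 28.0 to 39.2). A further 54 cells passed the Chgb limit alone, 0 passed the Tph1 limit alone and 139 passed neither.

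The enteroids came from female CD1 mice of genotype Neurog3eYFP/+, so all cells compared here, members and others alike, carry 1 reporter allele at Neurog3. They were grown with R-spondin-1, EGF and Noggin, dissociated with TrypLE, and living eYFP-positive cells were sorted at 1 cell per well into 4 plates. Plate 1 is duodenum at 39 weeks of age, plates 2 and 3 are duodenum at 12 weeks, and plate 4 is jejunum at 12 weeks. The plate is the unit of replication, and the labels do not say how many animals stand behind a plate. Where cells of the same plate are compared, p-values weigh their difference against how it varied from plate to plate. In the comparisons of tissue and age they weigh it against the spread between plates. Members numbered 21 of 72 cells in plate 1, 25 of 83 in plate 2, 20 of 72 in plate 3 and 31 of 63 in plate 4. Single cells of the series held 202711 to 2312044 counts, and no 2 of the 290 cell columns were identical.

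Enterochromaffin cells are the most common endocrine cells of the intestinal epithelium. They arise from secretory progenitors that transiently express Neurog3, make serotonin from tryptophan, load it into granules and release it onto nerve endings and neighbouring cells after chemical or mechanical stimulation. Serotonin is made when Tph1 hydroxylates tryptophan and Ddc decarboxylates the product, and the monoamine transporter Slc18a1 carries it into vesicles. Lmx1a, a LIM homeodomain factor, and Fev, an ETS factor also known from serotonergic neurons, are transcription factors of this lineage. Endocrine cells of the peptide lineages instead make hormones such as Gip, Gcg, Cck, Sst and Ghrl.

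Promoter windows of the gene that defines the members and of genes that were higher in them are shown because they hold the letters TAATTA, a core recognised by many homeodomain factors. Each lies before a RefSeq start on GRCm38.p6, is written 5′ to 3′ on the gene's strand, and carries the motif in capitals. The windows are chr7:46667566-46667627 (minus strand) for Tph1, chr1:74885432-74885517 (minus strand) for Fev and chr5:90490571-90490656 (plus strand) for Afp. In the GENCODE M21 annotation of the same build, those of Fev and Afp lie outside the gene, whereas that of Tph1 lies before an internal start and in an intron of a longer Tph1 transcript.
Tph1: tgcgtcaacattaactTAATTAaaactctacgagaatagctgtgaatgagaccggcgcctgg
Fev: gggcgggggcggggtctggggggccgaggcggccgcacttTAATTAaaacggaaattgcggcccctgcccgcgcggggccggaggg
Afp: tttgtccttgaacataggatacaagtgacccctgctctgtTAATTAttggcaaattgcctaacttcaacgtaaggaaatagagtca
Both strands were searched over the 250 bases before each start, and TAATTA reads the same on either strand. A gene was counted when any of its promoters held the motif. TAATTA was present in 5.65% of 27025 genes with a promoter. It was present in 4 of 57 such genes that were higher in members (7.02%: Afp, Fev, Gm13373 and Tac1) and in 1 of 98 that were lower (1.02%). The share among the genes that were higher was thus near that of all genes with a promoter. That full set also holds genes too low to be tested here, so the sets are unlike. The Tac1 match lies in a first exon of a GENCODE transcript and is not shown. A match describes letters in this window and is not a binding site.

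Another window is shown for TGACGTCA, the palindromic cAMP response element, which the immediate-early gene Dusp1 holds. It lies at chr17:26508568-26508655 (minus strand), before a RefSeq start and in an intron of a longer GENCODE transcript of Dusp1.
Dusp1: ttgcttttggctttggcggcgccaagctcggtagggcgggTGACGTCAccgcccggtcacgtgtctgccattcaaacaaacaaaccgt
TGACGTCA was present in 1.77% of all genes with a promoter, in 3 of 57 higher in members (5.26%: Dusp1, Pdzd8 and Ppp1r15a) and in 5 of 98 lower (5.1%). The shares on the higher and the lower side were therefore alike. Both were above that of all genes with a promoter, a set that also holds genes not tested here.

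The values that chose the members are given as a description. Within members the median Tph1 level was 1350, 1480, 1290 and 2870 CPM in plates 1 to 4, and the full range was 223 to 8260 CPM. The 3 members nearest the limit held 223, 258 and 282 CPM of Tph1, and the 3 cells just outside held 185, 111 and 97.3. Median Chgb was 67000, 90900, 54900 and 69500 CPM, and the members with the least Chgb held 10300, 14700 and 15500 CPM, well above the limit. Tph1 in the other cells had a median of 5.69 CPM. The class sums of Tph1 were 1680, 1510, 1730 and 3170 CPM in members and 7.27, 10.4, 10.5 and 19.8 CPM in all other cells.

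**Figure D1:**
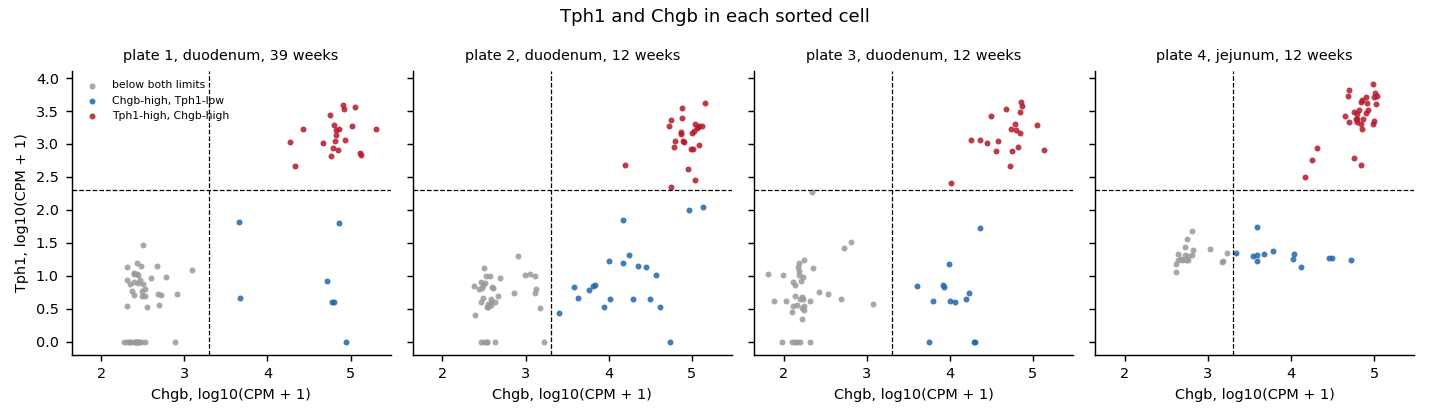
Tph1 (vertical axis) and Chgb (horizontal axis) in each sorted cell, both as log10(CPM + 1), 1 panel per plate; dashed lines mark 200 and 2000 CPM. Red points are the 97 members, blue points the 54 cells with Chgb alone and grey points the 139 cells below both limits, and the upper left corner is empty.

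The label was checked against markers the rule did not use. Lmx1a reached 100 CPM in 75 of 97 members, in 7 of 54 cells with high Chgb and low Tph1, and in 0 of 139 cells below both limits, which allows a share of up to 2.16%. Tac1, encoding the substance P precursor, reached 100 CPM in 94 of 97 members, in 24 of the 54 and in 6 of the 139, and all 75 members with Lmx1a were among the 94. Ddc reached it in 90 members, in 47 of the 54 and in 87 of the 139. Slc18a1 reached it in 88 members, in 35 of the 54 and in 63 of the 139, and Fev in 92 members, in 49 of the 54 and in 28 of the 139. Ddc, Slc18a1 and Fev thus reached 100 CPM in many cells outside the members too. A peptide hormone (Gip, Gcg, Cck, Sst, Nts, Pyy or Ghrl) reached 1000 CPM in 3 of 97 members, in each case Cck (this limit was set with the data in view). Sct, the secretin gene, was not among these 7 and reached 1000 CPM in 9 members (1, 6, 0 and 2 in plates 1 to 4), in 25 of the 54 and in 4 of the 139.

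Members were compared with all other cells of their plate by edgeR's quasi-likelihood test on counts summed per plate and class. Of 12834 genes tested, 227 (1.77%) had a Benjamini-Hochberg adjusted p under 0.05, 78 higher (0.608%) and 149 lower (1.16%) in members, Tph1 and Chgb not counted. These shares over all genes are the background of the list counts given below for this comparison. The cells were divided by Tph1 and Chgb in these same libraries, so genes that travel with them in endocrine cells had to differ, and nothing is read from the number of calls. Over all genes tested, the log2 fold change had a median of -0.15. The number of calls was 9 without plate 1, 3 without plate 2, 3 without plate 3 and 114 without plate 4. Every one of the 227 genes kept its direction in each of these fits that tested it (227, 227, 224 and 224 genes). Each such fit reuses plates of the fit that chose the genes, so the kept direction was nearly set in advance and is no support. Tff3 and Guca2a stayed past the threshold whichever plate was left out. Members also differed from the other cells in depth and mitochondrial share. Their median counts per cell were 382036 against 301666 in plate 1, 474939 against 413165.5 in plate 2, 466818.5 against 417581.5 in plate 3 and 810355 against 632586 in plate 4. Mitochondrial counts made up 3.81%, 3.25%, 6.72% and 5.41% in members and 7.52%, 5.09%, 9.36% and 6.2% in the others. The part of either in the results below was not tested.

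Of 12 listed genes of serotonin synthesis, storage and breakdown that were tested, 3 were higher in members and 0 lower. The list's median log2 fold change was 0.71 against -0.15 for all genes, and 4 of the 12 were higher in members of every plate, against 14.9% of all genes. Ddc, the decarboxylase that completes serotonin synthesis, stood at 1400, 2660, 1390 and 3950 CPM in members of plates 1 to 4 and at 478, 763, 260 and 1330 CPM in the other cells. It was higher in members of every plate, although the others of plate 4 nearly reached the members of plates 1 and 3. The fitted log2 fold change came to 1.66 ± 0.20 (SE, n = 4; edgeR adjusted p 0.0324). Slc18a1, the vesicular monoamine transporter of endocrine cells, stood at 840, 949, 1160 and 1210 CPM against 362, 256, 229 and 197, with no overlap between the classes (1.84 ± 0.29, edgeR adjusted p 0.0445). Gch1 encodes GTP cyclohydrolase, which starts the synthesis of tetrahydrobiopterin, the cofactor of Tph1. It stood at 214, 275, 737 and 575 CPM against 61.3, 83, 146 and 181 (1.70 ± 0.19, edgeR adjusted p 0.0266). Qdpr, which regenerates that cofactor, was higher in members of every plate without passing (1.28 ± 0.23, edgeR adjusted p 0.0627). Slc3a2, a subunit of amino acid transporters, had lower values in members of 3 plates and did not pass (-0.70 ± 0.27, edgeR adjusted p 0.317). The neuronal transporter Slc18a2 was found at 25.3, 55.5, 0 and 86.9 CPM in members, and the reuptake transporter Slc6a4 at 0, 0.164, 0.33 and 1.98 CPM, too low to be tested. The calls of Ddc, Slc18a1 and Gch1 were each lost when any 1 plate was left out, with the direction kept.

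Among transcription factors of the enterochromaffin lineage, 4 of 11 tested were higher in members and 0 lower, with a list median of 1.33. Lmx1a stood at 603, 1100, 811 and 778 CPM in members of plates 1 to 4 and at 50.4, 27.6, 26.7 and 12.7 CPM in the other cells. The lowest member value was thus over the highest value of the others, and the log2 fold change was 4.77 ± 0.48 (SE, n = 4; edgeR adjusted p 0.0223). Fev stood at 2140, 2270, 1740 and 2030 CPM against 509, 864, 276 and 781 (1.69 ± 0.24, edgeR adjusted p 0.0391). Nkx2-2, a homeodomain factor that acts in several endocrine lineages, was higher by 1.33 ± 0.21 (edgeR adjusted p 0.0445). Hmgn3, a nucleosome-binding protein, was higher by 1.65 ± 0.27 (edgeR adjusted p 0.0474). Higher in members of every plate were 9 of the 11 factors, against 14.9% of all genes tested, with Mnx1, Neurod1, Rfx6, Foxa1 and Foxa2 beside the 4 that passed. Of these 4 calls, 1, 0, 0 and 1 remained without plates 1, 2, 3 and 4.

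Neurog3 marks an earlier step of the endocrine programme, whereas Rfx6 is also on the list of enterochromaffin factors. Neurog3 stood at 23.4, 120, 67 and 14.4 CPM in members and at 8.9, 200, 32.9 and 19.9 CPM in the other cells, higher in plates 1 and 3 and lower in plates 2 and 4. The log2 fold change of 0.11 ± 0.45 was smaller than its error (edgeR adjusted p 0.935) and its sign changed with the method. Rfx6 stood at 174, 100, 169 and 120 CPM against 55.6, 72.4, 91.4 and 60.9, higher in each plate, but did not pass (0.81 ± 0.27, edgeR adjusted p 0.252).

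Among factors of the peptide-hormone lineages, Isl1, a LIM homeodomain factor, was lower in members. It stood at 0, 1.81, 0.33 and 1.9 CPM in members of plates 1 to 4 and at 0, 257, 54.1 and 310 CPM in the other cells (-7.39 ± 0.42, edgeR adjusted p 0.00827). Its plate 1 libraries had 0 counts in both classes, so its difference rests on plates 2 to 4. Of 7 factors tested, 2 passed, Isl1 among them, both lower, and the list median was -1.26. Of the 2 calls, 1, 0, 0 and 0 remained without plates 1, 2, 3 and 4.

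Signal peptides and maturation genes showed larger differences. Tac1 stood at 2690, 5090, 5410 and 5730 CPM in members and at 137, 162, 256 and 508 CPM in the other cells, with no overlap (4.11 ± 0.29, SE, n = 4; edgeR adjusted p 0.00827). Afp, encoding alpha-fetoprotein, stood at 50.6, 5000, 149 and 3830 CPM against 0.188, 168, 0.385 and 20.4. The lowest member value lay below the plate 2 value of the others, although the gene was higher within each plate (6.94 ± 0.71, edgeR adjusted p 0.024). Trpa1, an ion channel that senses irritants, stood at 35.6, 323, 211 and 131 CPM against 0.125, 1.04, 5.52 and 6.23 (6.09 ± 0.88, edgeR adjusted p 0.0412). Fxyd6, a regulator of the sodium-potassium pump, was higher by 5.89 ± 0.56 (edgeR adjusted p 0.0198). Tm4sf4, a tetraspan membrane protein, went the other way, at 122, 121, 141 and 61.9 CPM against 531, 581, 290 and 442 (-2.25 ± 0.30, edgeR adjusted p 0.0379). In all, 4 of 8 tested were higher and 1 lower, with a list median of 4.79. Of the 5 calls, 0, 1, 0 and 2 remained without plates 1, 2, 3 and 4. Ucn3, encoding the peptide urocortin 3, stood at 33.7, 686, 152 and 57.3 CPM against 0.627, 9.93, 0.49 and 12.3 and did not pass (edgeR adjusted p 0.0744).

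**Figure D2:**
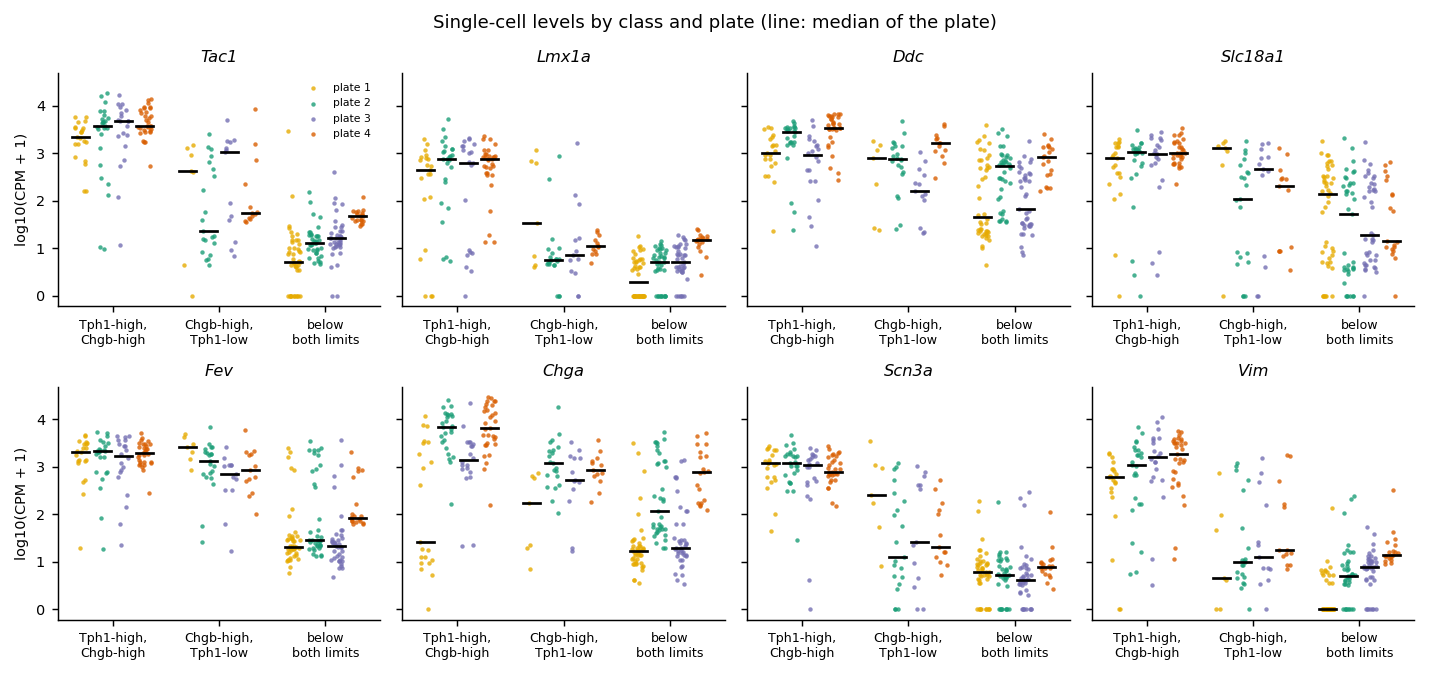
Levels in single cells (vertical axis, log10(CPM + 1)) of 8 genes by class; colours are plates, each point is 1 cell and each black line the median of the plate. Tac1, Lmx1a, Scn3a and Vim separate most members from cells below both limits, whereas Ddc, Slc18a1 and Fev extend into the other classes, and Chga is low in many members of plate 1.

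Granule genes differed among themselves. Chga, the chromogranin A gene, stood at 1800, 8950, 3370 and 11200 CPM in members and at 180, 1350, 266 and 1190 CPM in the other cells (3.05 ± 0.20, SE, n = 4; edgeR adjusted p 0.00679). It was the 1 of 6 granin-family genes that passed, and the call remained without plate 4 but not without any of the other plates. Scg2, the secretogranin II gene, stood at 222, 10.3, 10.4 and 81.1 CPM in members and at 12, 713, 360 and 854 CPM in the others, so plate 1 went against plates 2 to 4 (-3.88 ± 1.98, edgeR adjusted p 0.417). Vgf stood at 178, 211, 108 and 111 CPM against 0.627, 31.2, 12.9 and 43.3 without passing (edgeR adjusted p 0.261). Of the prohormone-processing genes, 0 of 6 passed, and 3 had an unadjusted p under 0.05. Pam, which amidates peptides, stood at 688, 685, 530 and 400 CPM against 108, 303, 85.4 and 297 (edgeR adjusted p 0.157). Cpe, carboxypeptidase E, stood at 2090, 706, 986 and 758 CPM against 549, 796, 482 and 1060, higher in 2 plates and lower in 2 (edgeR adjusted p 0.702).

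For vesicle release, 1 of 19 genes tested passed, against 1.77% of all genes. Rab3c, a small GTPase of secretory vesicles, stood at 283, 673, 284 and 563 CPM in members and at 20.3, 29.1, 21.3 and 13.4 CPM in the others, with no overlap (4.17 ± 0.40, SE, n = 4; edgeR adjusted p 0.0198; lost without any of plates 1 to 3). Its relative Rab3b stood at 50.3, 76.4, 30 and 128 CPM against 2.7, 19.5, 7.97 and 18.4 and did not pass (edgeR adjusted p 0.099). Cplx2, a complexin, stood at 983, 656, 373 and 496 CPM against 453, 318, 164 and 356 (edgeR adjusted p 0.119). The list median of 0.56 was above that of all genes.

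Among sensors and channels, 2 of 17 tested were higher and 0 lower, with a list median of 0.09. Scn3a, a voltage-gated sodium channel subunit, stood at 1250, 1390, 1000 and 1080 CPM in members and at 133, 86, 91.1 and 62.3 CPM in the others (3.52 ± 0.26, SE, n = 4; edgeR adjusted p 0.00827). It reached 100 CPM in 92 of 97 members. Ffar2, a receptor for short-chain fatty acids, stood at 660, 552, 298 and 635 CPM against 189, 196, 88.8 and 262 (1.4 ± 0.17, edgeR adjusted p 0.0325). Of the calls of Scn3a and Ffar2, 0, 0, 0 and 1 remained without plates 1, 2, 3 and 4. Piezo2, the mechanically gated channel known from enterochromaffin cells, stood at 0, 0.0821, 0.11 and 0.0395 CPM in members, and Adra2a, an adrenergic receptor, at 1.13, 0.246, 29.7 and 6.8 CPM against 32.6, 7.78, 11.5 and 16.8 in the others. Piezo2 was thus close to undetected at this depth, and Adra2a was higher in members in plate 3 alone. Olfr558, an odorant receptor gene, stood at 0, 40.7, 34.9 and 234 CPM against 0.0627, 0.0767, 0.0699 and 1.23 and did not pass (edgeR adjusted p 0.0718).

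**Figure D3:**
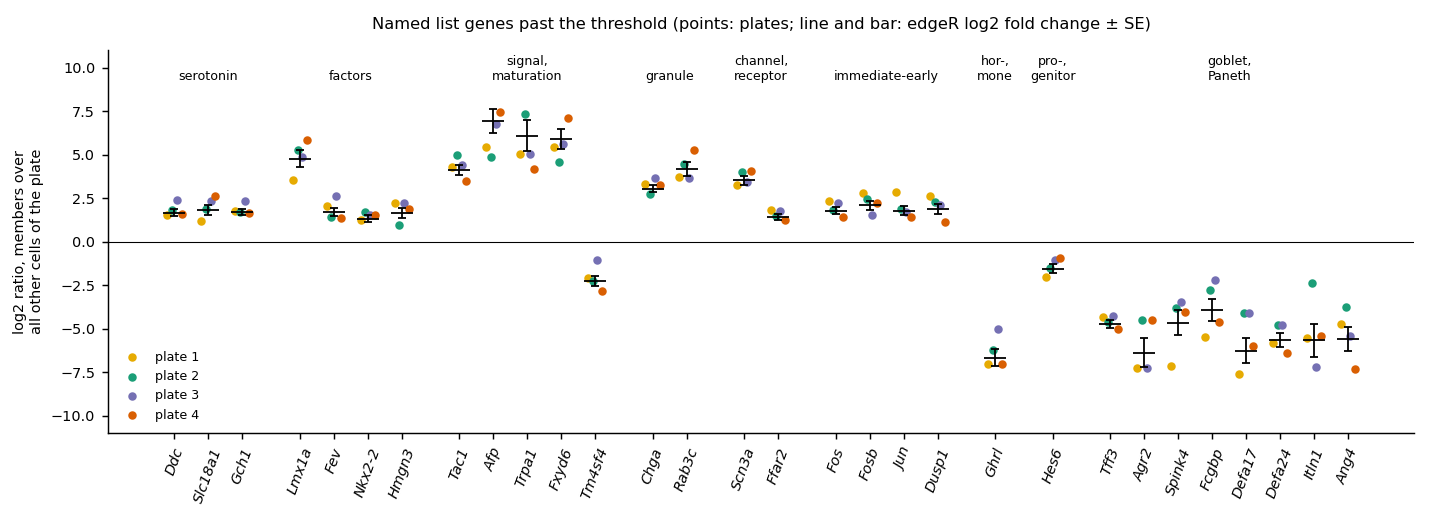
Log2 ratio of members to all other cells for list genes named by the rule that passed the test in this comparison; coloured points are plates (ratios of CPM + 1), and the black line and bar are edgeR's log2 fold change and its SE. Every point lies on the same side of 0 as its fitted value, with Ghrl among the lowest and Afp among the highest.

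Of 8 peptide hormone genes tested, 4 were lower in members and 0 higher, with a list median of -6.69. Ghrl, the ghrelin gene, stood at 2.39, 16.6, 23.7 and 22.1 CPM in members and at 445, 1330, 814 and 3010 CPM in the other cells (-6.66 ± 0.49, SE, n = 4; edgeR adjusted p 0.00827). Gip, an incretin gene, stood at 0, 10.8, 22.5 and 134 CPM against 0, 3870, 4740 and 33200 (-8.20 ± 0.31, edgeR adjusted p 0.00308). Gcg, the proglucagon gene, stood at 0, 3.86, 27.6 and 76 CPM against 0, 466, 2300 and 13200 (-7.07 ± 0.32, edgeR adjusted p 0.00506), and Pyy was lower too. Sct stood at 292, 657, 196 and 330 CPM against 130, 1270, 217 and 4370, higher in plate 1 and lower in the others, and did not pass (-1.0 ± 0.77, edgeR adjusted p 0.587). Of the 4 calls, 2, 0, 1 and 3 remained without plates 1, 2, 3 and 4. Plate 1 held 0 counts of Gip and Gcg in either class. Low hormone counts were spread over all wells of a plate. Gip reached 100 CPM in 27 of 31 members of plate 4, none above 232 CPM, and its sum there was 134 CPM in members and 146 CPM in cells below both limits. Sst reached 100 CPM in all 25 members of plate 2, none above 751 CPM, with sums of 332 and 275 CPM. In members, these low values are therefore not read as expression.

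Immediate-early genes, which respond to stimulation and to handling of cells within minutes, were higher in members. Of 8 listed, all 8 were tested, 4 passed, all 4 higher, and all 8 were higher in members of every plate, against 14.9% of all genes. Fos stood at 1980, 2190, 1810 and 1070 CPM in members of plates 1 to 4 and at 399, 612, 380 and 397 CPM in the others (1.78 ± 0.19, SE, n = 4; edgeR adjusted p 0.0261). Jun stood at 2600, 1370, 1520 and 1540 CPM against 357, 376, 468 and 578 (1.77 ± 0.26, edgeR adjusted p 0.0434). Neither gene's classes overlapped. Fosb was higher by 2.09 ± 0.27 (edgeR adjusted p 0.0343) and Dusp1, a phosphatase gene, by 1.86 ± 0.29 (edgeR adjusted p 0.0445). Egr1, Ier2, Junb and Atf3 did not pass, with edgeR adjusted p-values of 0.0927, 0.0863, 0.188 and 0.0627. The list median was 1.77. Of the 4 calls, 0, 0, 0 and 1 remained without plates 1, 2, 3 and 4. All cells of a plate went through 1 dissociation and sort, and the part of handling in this difference was not tested.

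**Figure D4:**
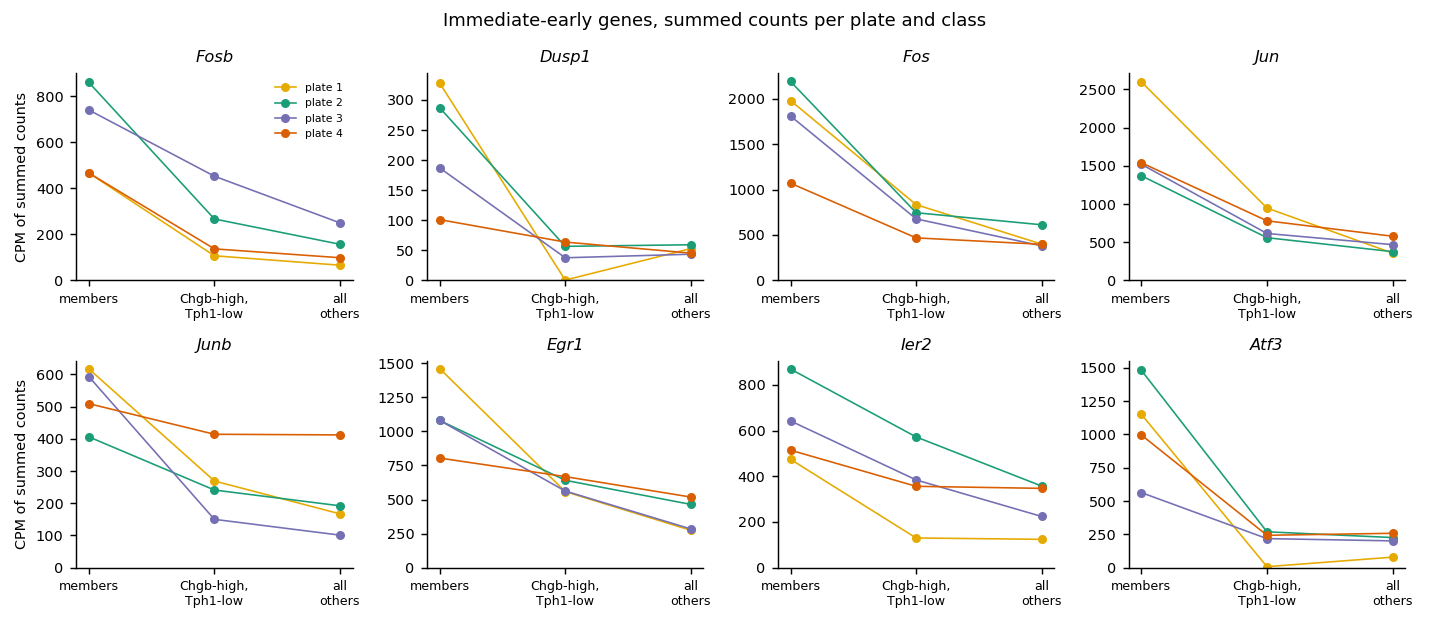
CPM of summed counts (vertical axis, from 0) of the 8 immediate-early genes in members, in cells with high Chgb and low Tph1, and in all other cells; each line is 1 plate. In every panel each plate's members lie above its 2 comparison classes.

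The genes outside the lists with the largest differences are named by size. Higher in members were Slc38a11 (6.72), an amino acid transporter family member, Ramp3 (6.01), a partner of calcitonin-family receptors, Ly6a (5.74), a surface antigen, Syn2 (4.97), a synapsin, Amigo2 (4.74), an adhesion protein, Nptx2 (4.56), a neuronal pentraxin, and Gstt1 (4.49), a glutathione transferase. The values in brackets are log2 fold changes. Vim, the intermediate filament vimentin, stood at 722, 1750, 2660 and 2370 CPM in members and at 21.1, 80.3, 90 and 170 CPM in the others (4.37 ± 0.26, SE, n = 4; edgeR adjusted p 0.00506), with no overlap. Il18r1 (4.16), an interleukin receptor, and Nr4a1 (4.11), an inducible nuclear receptor, complete the higher genes. These 10 genes had edgeR adjusted p-values from 0.00506 to 0.049, and every one was higher in members of each plate.

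Lower in members were Slc39a2 (-8.90), a zinc transporter, Guca2a (-8.12), the guanylin gene, Ccl9 (-7.33), a chemokine, Ifitm1 (-7.30), an interferon-induced membrane protein, and Plb1 (-6.80), a phospholipase. Guca2a stood at 3.15, 0.657, 2.09 and 3.52 CPM in members and at 1350, 178, 447 and 551 CPM in the other cells (edgeR adjusted p 0.00211). Scgn (-5.43), the calcium-binding protein secretagogin, stood at 22.9, 32.5, 2.31 and 41.8 CPM against 113, 1310, 377 and 2390 (edgeR adjusted p 0.049). Tspan8 (-5.43), a tetraspanin, Agpat4 (-4.34), an acyltransferase, Aoc1 (-3.67), diamine oxidase, and Ifitm3 (-3.54) followed. Ribosomal protein genes and their pseudogenes made up a large part of the 149 lower calls. The ranking by size leaves them out, as their changes were smaller, for example in Rpl12 (-2.07) and Rpl38 (-1.14). The cause of these genes' lower share of counts was not tested.

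Markers of other cell types were lower in members or did not pass the test. Goblet markers summed to 515 to 1130 CPM in members and 13200 to 21200 CPM in the other cells, and 4 of 6 tested were lower. Tff3, a trefoil peptide, stood at 588, 427, 490 and 265 CPM against 11800, 10500, 9380 and 8460 (-4.73 ± 0.21, SE, n = 4; edgeR adjusted p 0.00207). It reached 5000 CPM in 0 members, in 1 cell with high Chgb and low Tph1 and in 84 of the 139 cells below both limits. Agr2, Spink4 and Fcgbp were the others that passed, and 5 of the 6 were lower in members of every plate, against 14.5% of all genes. Of the goblet calls, 2, 1, 1 and 1 remained without plates 1, 2, 3 and 4. Paneth markers summed to 248 to 393 CPM against 2200 to 11600, and 5 of 6 were lower, with Defa24, a defensin, at 63.9, 51.3, 89.5 and 41.3 CPM against 3660, 1440, 2500 and 3530 (-5.65 ± 0.38, edgeR adjusted p 0.00679). Defensin genes are near-identical and can share reads. The others that passed were Lyz1, Defa17, Itln1 and Ang4, and 0, 0, 0 and 2 of the Paneth calls remained without plates 1, 2, 3 and 4.

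The progenitor list had 1 of 12 genes lower, Hes6, a Hes-family factor of endocrine progenitors, at 112, 167, 261 and 232 CPM in members and 457, 480, 538 and 442 CPM in the others (-1.56 ± 0.25, SE, n = 4; edgeR adjusted p 0.0463; lost without any 1 plate). Dll1, a Notch ligand of early secretory cells, had 0 counts in all members. Of 5 stem cell markers and 9 cell cycle genes 0 passed, with 2 and 1 at an unadjusted p under 0.05. The only testable tuft marker, Avil, did not pass, and the defining tuft gene Dclk1 stood at 0, 0.0821, 0.11 and 0.0395 CPM in members.

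The nearest cells in the series were the 54 with high Chgb and low Tph1, 7, 21, 13 and 13 in plates 1 to 4. They were a mixed class. A peptide hormone reached 1000 CPM in 30 of them, with Cck in 23, Gip in 11 and Gcg in 10, but in 0 of the 7 in plate 1. Lmx1a reached 100 CPM in 7 of them, 3 of those in plate 1. Of 11086 genes tested against these cells, 4 (0.0361%) passed, Vim higher (0.00902%) and Isl1, Gip and Gcg lower (0.0271%), and 596 had an unadjusted p under 0.05. Over all genes, the log2 fold change had a median of 0.19. Isl1, Gip and Gcg were named after their values had been seen. Vim stood at 722, 1750, 2660 and 2370 CPM in members and at 122, 200, 360 and 329 CPM in these cells, with no overlap (2.84 ± 0.19, SE, n = 4; edgeR adjusted p 0.00844). Gip stood at 0, 10.8, 22.5 and 134 CPM against 0, 11200, 20400 and 69000 (-9.60 ± 0.29, edgeR adjusted p 0.000684), and Gcg fell by 8.46 ± 0.19 on the log2 scale (edgeR adjusted p 0.000392). Isl1 stood at 0, 1.81, 0.33 and 1.9 CPM against 0, 565, 191 and 352 (edgeR adjusted p 0.0484). The calls of Gip and Gcg remained whichever plate was left out, while Vim and Isl1 remained without plate 1 only. No call remained with the stricter limits of 500 CPM of Tph1 and 4000 of Chgb, or with the plate left out of the model.

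The enterochromaffin genes did not pass against this class. In simulated data without differences between plates, this comparison called 12% of 4-fold and 38% of 8-fold changes. Failing to pass thus does not show equal levels. Tac1 stood at 643, 435, 1010 and 1010 CPM in these cells (2.61 ± 0.29 higher in members, SE, n = 4; edgeR adjusted p 0.0918) and Chga at 289, 2440, 827 and 1130 CPM (2.44 ± 0.24, edgeR adjusted p 0.0684). Lmx1a stood at 365, 70.9, 98.4 and 11.8 CPM (3.45 ± 0.90, edgeR adjusted p 0.631), so the cells of plate 1 were closest to the members. Ddc stood at 815, 1110, 317 and 1760 CPM (edgeR adjusted p 0.441). Slc18a1 stood at 1090, 358, 561 and 237 CPM and Fev at 2760, 1660, 808 and 1290 CPM, both higher in these cells than in members in plate 1 and lower in plates 2 to 4. All 8 immediate-early genes were higher in members of every plate, against 9.51% of all genes, and 7 had an unadjusted p under 0.05, but 0 passed. Lower in every plate were 3 of 4 goblet markers tested (Tff3, Agr2 and Spink4), against 7.34% of all genes, and 0 of them passed. Fos stood at 834, 745, 677 and 468 CPM in these cells (1.33 ± 0.17 higher in members, edgeR adjusted p 0.154). The 5 genes outside the lists with the largest lower values, none of which passed, were Gnai1, Kif5c, Lect2, Slco3a1 and Rgs4, at log2 fold changes from -7.24 to -5.43.

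Because the class was mixed, members were also set against its 29 cells with a peptide hormone at 1000 CPM and Lmx1a below 100 CPM, a choice made after seeing the data that leaves plates 2, 3 and 4 with 13, 7 and 9 cells. There 12 of 11039 genes tested passed, 5 higher and 7 lower, but Lmx1a, Gip, Gcg, Pyy and Cck among them had been used to choose the cells. Of the rest, higher in members were Pappa2, a protease of growth-factor binding proteins (8.83 ± 0.60), Afp (8.30 ± 0.42), Ly6a (6.97 ± 0.55) and Chga (3.07 ± 0.22), with SE over n = 3 plates and edgeR adjusted p-values of 0.0285, 0.0115, 0.0383 and 0.0285. Pappa2 stood at 333, 724 and 1040 CPM in members of plates 2 to 4 and at 0.999, 0.538 and 3.05 CPM in the hormone cells. Lower in members were Isl1, Rbp4 and Fabp5. Rbp4, the retinol carrier, stood at 29.1, 21.8 and 8.74 CPM in members and at 2170, 1750 and 996 CPM in the hormone cells (-6.49 ± 0.33, edgeR adjusted p 0.0115). Fabp5, a fatty acid-binding protein, stood at 104, 30.8 and 36.5 CPM against 3260, 1130 and 1680 (-5.26 ± 0.29, edgeR adjusted p 0.0145). Vim was 4.12 ± 0.91 higher on the log2 scale and did not pass here (edgeR adjusted p 0.515).

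Members varied among themselves more in some genes than in others. Ddc had a median of 1980 CPM over the 97 members (10.4 to 6820), Slc18a1 of 991 (0 to 3420), Fev of 2040 (17.0 to 5270) and Tac1 of 3660 (8.54 to 18400). Other genes were on in a few members only. Afp reached 100 CPM in 29 of 97, with a median of 15.1 and a highest value of 45600 CPM. Trpa1 reached it in 21 and Ucn3 in 13. At least 1 of Afp, Trpa1 and Ucn3 reached 100 CPM in 35 members (4, 10, 6 and 15 in plates 1 to 4), in 5 of 54 cells with high Chgb and low Tph1, and in 0 of 139 cells below both limits. All 3 did so in 8 members, 6 of them in plate 2 and 2 in plate 3. The odorant receptor gene Olfr558 reached it in 13 members and Olfr78 in 9, 10 and 7 of these in plate 4, and 5 members had both.

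Reg4, encoding a secreted lectin, was uneven over plates and cells. Its class sums in members were 1810, 11900, 1170 and 19300 CPM, its medians per cell 23.8, 66.8, 12.1 and 631 CPM, and its highest single values 26900, 86900, 12800 and 100000 CPM. A few cells thus carried most of its counts. Chga was likewise uneven, with a median of 24.5 CPM in members of plate 1 against 6830, 1370 and 6390 CPM in plates 2 to 4. It reached 100 CPM in 10 of 21 members of plate 1 and in 25 of 25, 18 of 20 and 31 of 31 elsewhere. Plate 1 was also the shallowest plate for members.

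**Figure D5:**
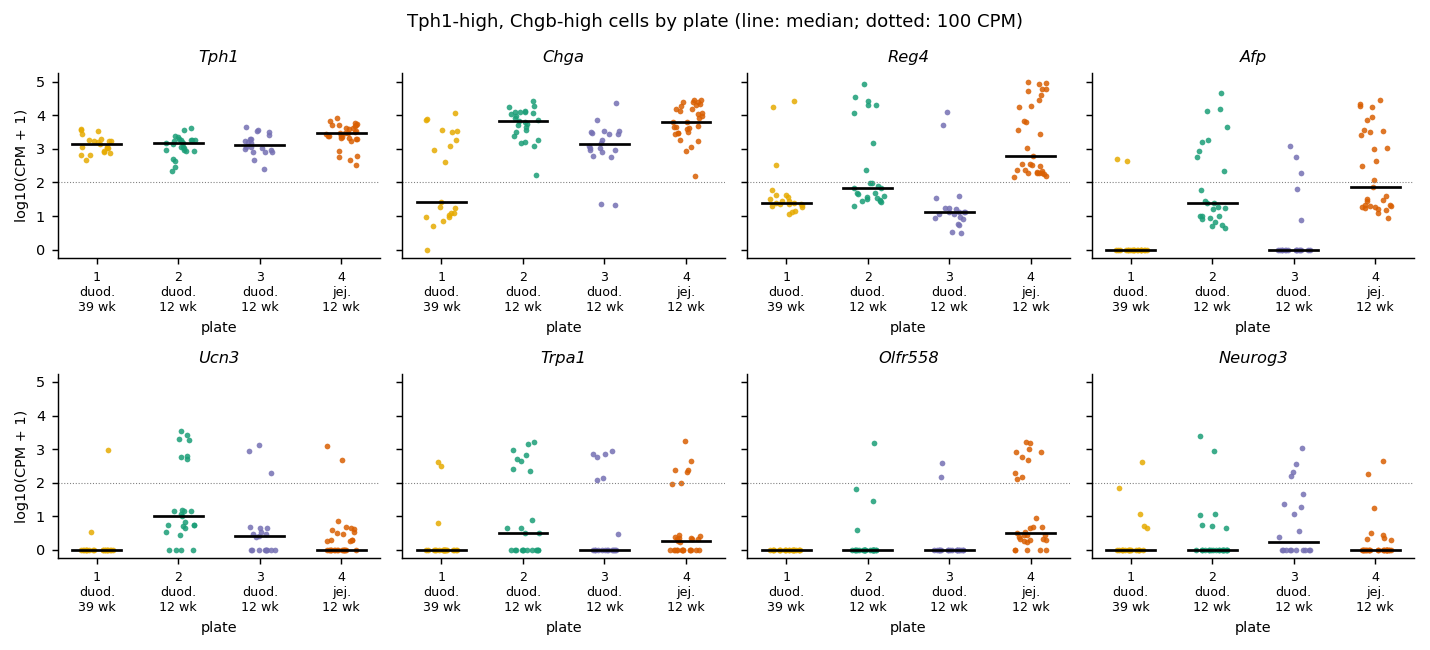
Levels in the 97 members (vertical axis, log10(CPM + 1)) of 8 genes by plate; each point is 1 cell, black lines are medians and the dotted line is 100 CPM. Chga is low in many members of plate 1, and Afp, Ucn3, Trpa1, Olfr558 and Neurog3 are high in some members only.

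Neurog3 reached 100 CPM in 9 members, 1, 2, 4 and 2 in plates 1 to 4, with values from 161 to 2540 CPM. These cells were picked by a measured value and are described without a test. Of these 9, 8 had Lmx1a and 8 had Tac1 at 100 CPM or more, as did 67 and 86 of the other 88. None of the 9 had Ucn3, Trpa1 or Afp at 100 CPM, against 13, 21 and 29 of the other 88. Their median Insm1, an early endocrine zinc-finger factor, was 459 CPM against 63.9, their median Pax4 105 against 3.74 and their median Chga 1080 against 3370. One cell of plate 3 held 1100 CPM of Neurog3, 1140 of Tph1, 1570 of Hes6, 1330 of Pax4 and 1790 of Insm1, but 6.99 of Lmx1a and 10.5 of Tac1. The cell with the most Neurog3, at 2540 CPM in plate 2, held 1220 CPM of Lmx1a and 4490 of Tac1.

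Rank correlations between genes over the members of a plate (20 to 31 cells that share a plate, a dissociation and differing depths) are given as a description. Some pairs were chosen after their values had been seen. Spearman's rho between Jun and Atf3 was 0.68, 0.72, 0.69 and 0.73 in plates 1 to 4, and between Fos and Jun 0.68, 0.47, 0.68 and 0.74. Tac1 with Vim gave 0.45, 0.75, 0.50 and 0.65, and Afp with Fxyd6 0.45, 0.46, 0.61 and 0.52. Tph1 with Ddc gave 0.54, 0.35, 0.49 and 0.28. Tph1 with Lmx1a gave 0.37, -0.04, -0.03 and 0.35, and Tph1 with Tac1 0.29, -0.02, 0.12 and 0.27. Tph1 with Chgb, the other gene of the rule, gave 0.26, 0.24, 0.38 and 0.42.

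The share of members was 29.2% (exact Clopper-Pearson 95% interval 19 to 41.1) in plate 1, 30.1% (20.5 to 41.2) in plate 2, 27.8% (17.9 to 39.6) in plate 3 and 49.2% (36.4 to 62.1) in plate 4, the jejunum plate. The intervals cover counting error only. They overlap, the share depends on the eYFP sort, and no test was made with 1 jejunum plate. Tissue, animal and plate cannot be told apart.

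Members of the jejunum plate were compared with members of the 3 duodenum plates. Of 15304 genes tested with edgeR, 0 passed (0.0%) and 466 were under 0.05 before adjustment. With DESeq2 553 passed, of which 24 had higher and 529 lower values in the jejunum plate. The smallest p that exact permutation of 1 plate among 4 allows for any one gene is 0.25. Within the duodenum, members of the 39-week plate were compared with those of the 12-week plates. Of 14181 genes, 0 passed with edgeR (0.0%) and 905 were under 0.05 before adjustment. With DESeq2 672 passed, of which 179 had higher and 493 lower values at 39 weeks. Among genes named above, Trpa1 (-3.02 ± 0.75), Ucn3 (-3.76 ± 1.04), Afp (-5.80 ± 1.92), Ly6a (-3.97 ± 0.74) and Amigo2 (-4.36 ± 0.91) had lower values at 39 weeks. Scg2 (4.3 ± 0.79) had higher values. These are examples, none of them passed, and other named genes went in either direction. Age is represented by 1 plate, which was also the shallowest, so age, animal, plate and depth cannot be told apart.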

How the data were processed

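The deposited table gives raw counts of each gene in each of 290 wells. Per the submitters' processing notes, build mm10 and the tools bcl2fastq 2.17.1.14, cutadapt 1.10, Bowtie2 2.2.8, STAR 2.5.3a, UMI-tools 0.4.4 and HTSeq 0.6.1 were used, with roles not given. The BD Precise WTA kit gives each well its own barcode, per the labels' protocols. The largest value, 643177, may include copies of 1 molecule, so intervals and limits for a count of 0 (3 cells) cover counting error only. The authors' cell filter is not given in the sources used here, and no doublet caller was run on wells of 1 sorted cell. The column's experiment number was matched to the pool number of the sample titles, which left 0 columns without a sample. Duodenum replicates 1 to 3 are called plates 1 to 3, and the jejunum replicate plate 4.

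CPM were computed per cell, or from counts summed per plate and class (CPM of sums). Sums were tested where a plate had 5 or more cells of each class, with edgeR 4.0.16 (R 4.3.3; quasi-likelihood, TMM, filterByExpr, plate as a block because both classes come from the same plate, Benjamini-Hochberg threshold 0.05). Alternatives used DESeq2 1.42.0, limma 3.58.1 with a pseudocount of 10 CPM, other limits, no filter, RLE scaling and leaving out plates. The edgeR tests of members against other cells were checked on simulated data with 50 genes changed at each size. The simulation gave all plates the same expected levels and changed only genes with a mean of at least 10 CPM. The shares called may therefore differ in the real data. Against all other cells, 2%, 44%, 78% and 78% of 2-, 4-, 8- and 16-fold changes were called. Against cells with high Chgb and low Tph1, 0%, 12%, 38% and 64% were called. A gene that did not pass is thus not shown to be unchanged. Tph1 and Chgb, used by the rule, stay out of the counts of calls. The 17 lists hold 179 genes, 176 of them in the table of 29161, and the members and lists were chosen with earlier results of these data known. The rule for named genes takes 6 enterochromaffin genes, Neurog3 and Rfx6 always, up to 4 genes per list past the threshold (otherwise up to 2 by level), and per direction the 10 largest changes outside the lists that go alike in every plate and reach 50 CPM (5 as values where none passes). Other list genes are given by their values, and some genes the rule takes are not reported here. Promoters were matched by symbol to RefSeq (GRCm38.p6).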

Additional observations from a re-analysis of the deposited data

Results flagged for a closer look

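Values of 1 plate that stood apart from the other 3, by a gap that chance gives in about 1 of 20 groups of 4, were found for 4 results. They were sought in the member share and, in both comparisons, in the genes named by the rule with a mean of 50 CPM in either class. Over so many values, some such gaps come by chance alone. The share of members was 49.2% in plate 4, the jejunum plate, against 27.8% to 30.1% in the duodenum plates. Spink4, a goblet marker, had a log2 ratio of members to other cells of -7.13 in plate 1. Against cells with high Chgb and low Tph1, Cck had a log2 ratio of 6.18 in plate 1, where these cells held 0.476 CPM of it, and Neurog3 had one of -0.65 in plate 2.

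In the same comparison, 2 genes went one way in plates 1 to 3 (duodenum) and the other in plate 4 (jejunum). Such genes were sought among the same named genes in both comparisons, and some come by chance alone. Axin2, a Wnt target, had a log2 ratio of 0.66 in plate 4 and values below 0 in the duodenum plates. Pam had -0.25 in plate 4 and values above 0 in the duodenum plates. Whether the tissues differ in these genes was not tested, with 1 jejunum plate.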

How the results depend on the processing

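The number of genes that differed between members and other cells was 227 and depended on the method: DESeq2 called 2059 (920 higher, 1139 lower), limma on plate means of cells 824 (526 higher, 298 lower), and edgeR with no replicate block 129 (52 higher, 77 lower). Higher genes were thus the minority with edgeR and the majority with limma. The block is the plate both classes came from. Leaving out 1 plate gave 3 to 114 calls, with fewer plates in the fit. Over all genes the median was -0.15 on the log2 scale, and -0.39 with no filter, -0.12 with RLE, 0.01 with no replicate block, 0.04 with limma and 0.07 with DESeq2. Without the filter, with RLE scaling, without Tph1 and Chgb and with looser or stricter limits the count stayed within 203 to 228.

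Against cells with high Chgb and low Tph1, the 4 calls became 606 with DESeq2 (429 higher, 177 lower), 8 without the filter, 9 with limma, 0 with stricter limits and 0 with no replicate block (edgeR; 556 and 414 under 0.05 before adjustment), 2 to 6 without 1 plate, and 12 with hormone cells only, an alternative chosen after seeing the data. For tissue, 0 calls became 553 with DESeq2, 10 without the filter and 1 to 24 without 1 duodenum plate. For age, 0 became 672 with DESeq2 and 93 without the filter, and leaving out a plate leaves no residual degrees of freedom. The causes were not tested. The tissue and age comparisons are between plates and have no block.

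Among the genes named by the rule, signs changed only for ones that did not pass. Against all other cells these were Neurog3 (-0.01 with limma, -0.37 with no replicate block, -0.22 to 0.45 without 1 plate), Axin2 (0.0 with no replicate block, -0.54 to 0.17 without 1 plate), Cpe (-0.03 to 0.69 without 1 plate) and Tyms (0.03 with limma). Against cells with high Chgb and low Tph1 they were Avil (-0.07 with limma, -1.08 with no replicate block), Cplx2 and Scg3 (both 0.04 with stricter limits), Smoc2 (0.08 with looser limits), Fcgbp (-1.39 to 0.14 without 1 plate), Lyz1 (-1.62 to 0.06 without 1 plate) and Neurog3 (-0.03 with limma). With hormone cells only they were Axin2 (1.75), Cplx2 (0.03), Fcgbp (0.0), Pam (-0.26), Pcna (-0.15) and Tyms (2.31). Plates of 20 to 31 members, and the low depth of plate 1, limit what the tests can show.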
